A study of Mus musculus with 9 samples.

Results

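The tissue inhibitors of metalloproteinases (TIMPs) and their best known targets, the matrix metalloproteinases (MMPs), were followed in cultured neural stem cells (NSCs) from the subventricular zone (SVZ) of adult mice. The set held 10 of the 55704 genes with a deposited value: the inhibitors Timp1, Timp2, Timp3, Timp4 and Reck, and the proteases Mmp2, Mmp14, Mmp15, Mmp16 and Mmp17. They were taken by gene symbol, and they were chosen with their FPKM (fragment numbers scaled by gene length and library size) in the 3 groups of NSCs in view, so their levels and differences are given as a description, without a test. All 10 passed the filter used for testing, a mean of at least 0.1 FPKM over the 9 libraries.

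NSCs from C57BL/6 mice aged 8 to 9 weeks, with 2 females and 2 males per isolation, were grown as floating cultures with bFGF and EGF for several passages and then plated on poly-L-ornithine and laminin. The bFGF/EGF-treated NSCs were collected at day 0, on the day after plating. The bFGF/BMP4-treated NSCs, in which BMP4 took the place of EGF, and the BMP4-treated NSCs, in which BMP4 took the place of both factors, were collected at day 6, and each factor was used at 20 ng/ml. Each group had 3 bulk RNA-seq libraries, given below in the order of replicates 1, 2 and 3, and all SDs are over these 3 libraries. The labels call them biological replicates without saying whether they came from separate isolations, so the spread between them may be partly technical. Both day 6 groups were compared with day 0 cells, so treatment and time in culture cannot be told apart in those comparisons, whereas BMP4- and bFGF/BMP4-treated NSCs were of the same day and differed by bFGF. In bulk RNA, fewer cells of a type and less RNA per cell cannot be told apart.

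MMPs are zinc proteases that cut extracellular matrix and cell surface proteins and are made as inactive precursors. Mmp14, Mmp15 and Mmp16 are anchored in the membrane by a transmembrane segment and Mmp17 by a lipid anchor, whereas Mmp2, a gelatinase, is secreted. TIMPs are small secreted proteins that block the active site of MMPs, and Timp2 also helps Mmp14 to activate the Mmp2 precursor. In the SVZ, NSCs lie in a niche rich in laminin and other matrix proteins, and the balance of proteases and inhibitors sets how that matrix is turned over.

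The libraries held 15883075 to 17392676 fragments on genes. Sox2, a transcription factor of NSCs, had a mean of 167 FPKM at day 0, 137 FPKM with bFGF/BMP4 and 137 FPKM with BMP4, and none of the 7 NSC markers was at 0 in any group. Of these markers, 4 were lower and 1 higher with bFGF/BMP4 than at day 0, and 1 was lower and 2 higher with BMP4. Of all 20207 genes tested, 14.1% were lower and 16.5% higher with bFGF/BMP4 than at day 0, and 15.4% lower and 21.3% higher with BMP4. Between the day 6 groups 5.14% were lower and 8.41% higher with BMP4. These shares are also the background of the marker counts that follow. Nes, the intermediate filament nestin, had means of 151, 3.55 and 15.8 FPKM at day 0, with bFGF/BMP4 and with BMP4, and Vim, the intermediate filament vimentin, had means of 677, 167 and 892 FPKM in the same order. Of the 5 ependymal markers, 4 were higher in BMP4-treated NSCs than in both other groups. Their summed level was 58.0 to 70.1 FPKM there against 7.87 to 12.4 FPKM in bFGF/EGF- and 10.4 to 11.4 FPKM in bFGF/BMP4-treated NSCs, most of it Foxj1, with Tmem212 at 0. The 6 neuron markers summed to 325 to 360.0, 11.7 to 20.1 and 41.7 to 56.4 FPKM at day 0, with bFGF/BMP4 and with BMP4, mostly Gap43. Of the 5 tested, 0 were higher and 2 lower with bFGF/BMP4 than at day 0, and 1, Dcx, was higher and 2 lower with BMP4. Between the day 6 groups 3 were higher and 1 lower with BMP4. Dcx had means of 0.187, 0.116 and 0.904 FPKM, the last mostly from replicate 1. The 8 microglia markers summed to 1.42 to 4.43 FPKM at day 0, 0.759 to 0.955 FPKM with bFGF/BMP4 and 2.38 to 3.8 FPKM with BMP4, with C1qa and Itgam at 0. Of the 3 tested, Tmem119 (means of 0, 0.257 and 1.34 FPKM) was higher in both day 6 groups than at day 0. P2ry12 (0.561, 0.153 and 0.225 FPKM) was lower in both, and Cd68 (2.22, 0.344 and 1.32 FPKM) was lower with bFGF/BMP4. The 10 vascular, mural and fibroblast markers summed to 0.257 to 0.436, 1.97 to 2.64 and 4.13 to 5.68 FPKM in the same order, with Cldn5 at 0, and of the 4 tested, Kdr (means of 0.152, 1.18 and 3.31 FPKM), Rgs5 and Pdgfrb were higher with BMP4 than at day 0 and 0 were lower. The part of these markers in the results below was not tested.

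The most abundant TIMP differed between the media. Timp2 had 77.3% ± 1.08 (SD, n = 3) of the summed FPKM of the 4 TIMPs in bFGF/EGF-treated NSCs and 86.7% ± 2.43 in BMP4-treated NSCs, but 18.3% ± 2.95 in bFGF/BMP4-treated NSCs. Timp4 took its place there with 70.7% ± 5.27, against 9.41% ± 0.352 in bFGF/EGF- and 7.04% ± 2.14 in BMP4-treated NSCs. FPKM is scaled by gene length, so these shares compare levels between genes. They depend on the length taken for each gene, which was not checked against the transcripts present. Since the members were chosen on these values, no test is attached to the shares.

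The promoters of the 4 TIMPs are shown because their transcripts followed 4 different patterns over the groups. RefSeq windows from 250 bases before to 50 bases after the gene start (GRCm38.p6) were found for 7 of the 10 genes, all but Mmp2, Mmp16 and Mmp17. The Timp1 window was chrX:20869916-20870215 on the plus strand, that of Timp2 chr11:118355362-118355661 on the minus strand, that of Timp3 chr10:86300162-86300461 on the plus strand and that of Timp4 chr6:115252156-115252455 on the minus strand. They are printed from 5′ to 3′ on the gene's strand, and capitals mark matches of the GC box GGGCGG on either strand.
Timp1: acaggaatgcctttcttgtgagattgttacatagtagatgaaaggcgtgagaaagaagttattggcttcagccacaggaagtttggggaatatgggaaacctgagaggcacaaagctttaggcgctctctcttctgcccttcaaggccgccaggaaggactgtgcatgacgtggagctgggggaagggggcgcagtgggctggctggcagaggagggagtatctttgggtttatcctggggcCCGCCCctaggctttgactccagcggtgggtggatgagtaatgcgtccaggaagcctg
Timp2: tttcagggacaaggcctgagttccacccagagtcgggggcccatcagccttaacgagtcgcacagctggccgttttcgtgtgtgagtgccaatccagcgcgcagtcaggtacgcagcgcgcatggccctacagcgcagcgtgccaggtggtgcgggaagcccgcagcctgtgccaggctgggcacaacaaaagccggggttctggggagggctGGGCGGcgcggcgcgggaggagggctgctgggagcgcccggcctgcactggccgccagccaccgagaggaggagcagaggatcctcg
Timp3: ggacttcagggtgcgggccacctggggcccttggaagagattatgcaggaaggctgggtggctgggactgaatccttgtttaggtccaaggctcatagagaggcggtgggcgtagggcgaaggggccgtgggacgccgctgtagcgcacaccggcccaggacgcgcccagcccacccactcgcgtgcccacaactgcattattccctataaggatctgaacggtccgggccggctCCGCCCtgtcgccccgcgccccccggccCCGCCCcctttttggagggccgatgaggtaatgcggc
Timp4: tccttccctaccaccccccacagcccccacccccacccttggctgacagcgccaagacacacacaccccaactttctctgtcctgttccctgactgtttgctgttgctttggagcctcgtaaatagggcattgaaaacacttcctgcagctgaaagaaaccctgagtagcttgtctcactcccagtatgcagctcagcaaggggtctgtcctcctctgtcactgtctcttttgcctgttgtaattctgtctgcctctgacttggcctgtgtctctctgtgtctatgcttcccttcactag
Capitals stand at position -8 in Timp1 and -37 in Timp2, and at positions -15 and 13 in Timp3, counted from the gene start as 0, whereas the Timp4 window held no match. The GC box was found in 35.7% of all 32851 windows. The AP-1 letters TGANTCA (7.81% of all windows), the TATA letters TATAAA (13.6%) and the GC-rich SMAD letters GGCGCC (11.9%), each searched on both strands, matched none of the 4 windows, which says only that these letters are not there. G and C made up 55% of the Timp1 window, 68.7% of that of Timp2, 67% of that of Timp3 and 53.3% of that of Timp4, where the median of all windows was 52.7%.

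Timp2 (ENSMUSG00000017466, chr11:118191887-118246566 in GRCm39, minus strand) was the most abundant TIMP in both bFGF/EGF- and BMP4-treated NSCs. Its level was 48.1, 54.6 and 38.1 FPKM in the bFGF/EGF libraries, 18.4, 27.1 and 27.0 FPKM in the bFGF/BMP4 libraries and 256, 211 and 227 FPKM in the BMP4 libraries. No library of one group overlapped those of another, with bFGF/BMP4 lowest and BMP4 highest. The mean of 231 ± 22.8 FPKM in BMP4-treated NSCs was 9.57-fold that in bFGF/BMP4-treated NSCs, 24.2 ± 5.04 FPKM, and 4.93-fold that in bFGF/EGF-treated NSCs, 46.9 ± 8.29 FPKM. On the log2(FPKM + 0.1) scale the difference of bFGF/BMP4- from bFGF/EGF-treated NSCs was -0.96 ± 0.19 (SE), just short of a fold of 2, and it was past that fold without replicate 3 of bFGF/EGF (-1.10), replicate 2 of bFGF/BMP4 (-1.06) or replicate 3 of bFGF/BMP4 (-1.05). In BMP4-treated NSCs, 99.4% of the 20207 genes tested had a lower mean level than Timp2. Timp2 shares 332 bp of exon sequence with Cep295nl on the same strand, which did not exceed 0.390 FPKM in any library.

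Timp4 (ENSMUSG00000030317, chr6:115187773-115229336, minus strand), which is known for a narrower tissue range than the other TIMPs, was highest in bFGF/BMP4-treated NSCs. Its level was 5.91, 6.94 and 4.40 FPKM in the bFGF/EGF libraries, 94.1, 88.1 and 95.8 FPKM in the bFGF/BMP4 libraries and 17.1, 23.8 and 14.8 FPKM in the BMP4 libraries. The 3 groups did not overlap, and BMP4-treated NSCs lay between the others. The mean in bFGF/BMP4-treated NSCs, 92.7 ± 4.04 FPKM, was 16.1-fold that in bFGF/EGF- and 4.996-fold that in BMP4-treated NSCs, with log2 fold changes of 4.01 ± 0.20 and, for BMP4- against bFGF/BMP4-treated NSCs, -2.34 ± 0.20 (SE). Timp2 and Timp4 thus stood in opposite order in the 2 day 6 groups, Timp2 being the higher with BMP4 alone and Timp4 with bFGF/BMP4. Timp4 lies inside Syn2, a synaptic vesicle protein gene on the opposite strand, with 1142 bp of shared exon sequence, and whether the fragments were counted by strand is not given in the sources used here. Syn2 itself had means of 6.84, 16.8 and 22.7 FPKM at day 0, with bFGF/BMP4 and with BMP4. With BMP4 the mean of Syn2 was 3.32-fold and that of Timp4 3.23-fold the day 0 mean, while Timp4 but not Syn2 was highest with bFGF/BMP4. The part of the shared sequence in these levels was not tested.

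Timp3 (ENSMUSG00000020044, chr10:86136236-86185371, plus strand) encodes the TIMP that binds tightly to the matrix and also inhibits ADAM and ADAMTS proteases. Its level was 1.5, 1.87 and 1.08 FPKM in the bFGF/EGF libraries, 10.0, 16.8 and 15.4 FPKM in the bFGF/BMP4 libraries and 11.3, 13.2 and 17.2 FPKM in the BMP4 libraries. Both day 6 groups lay wholly above day 0 and overlapped each other. The means of 14.1 ± 3.6 FPKM with bFGF/BMP4 and 13.9 ± 3.00 FPKM with BMP4 were 9.48-fold and 9.35-fold the day 0 mean, and the log2 fold change between the 2 day 6 groups was -0.01 ± 0.25 (SE). The sign of that last value turned in 4 of its 18 alternatives. Timp3 lies inside Syn3 on the opposite strand with 1734 bp of shared exon sequence, but Syn3 did not exceed 0.433 FPKM in any library.

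Timp1 (ENSMUSG00000001131, chrX:20736316-20740976, plus strand), the TIMP known to be induced by growth factors and inflammation in many cells, was the only TIMP whose mean was highest at day 0. Its level was 6.43, 8.40 and 5.23 FPKM in the bFGF/EGF libraries, 0.421, 0.587 and 0.383 FPKM in the bFGF/BMP4 libraries and 3.47, 2.71 and 1.5 FPKM in the BMP4 libraries. The groups did not overlap, with bFGF/BMP4 lowest and BMP4 between the others. The mean in bFGF/BMP4-treated NSCs, 0.464 ± 0.109 FPKM, was 14.4-fold lower than at day 0, and that in BMP4-treated NSCs, 2.56 ± 0.991 FPKM, was 2.61-fold lower than at day 0 and 5.52-fold that with bFGF/BMP4. The bFGF/BMP4 values rest on 5 to 8 fragments per library, so their counting error is large. Timp1 lies within Syn1, on the opposite strand and with 0 bp of shared exon sequence, and Syn1 had means of 15.3, 5.68 and 6.30 FPKM in the 3 groups.

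**Figure D1:**
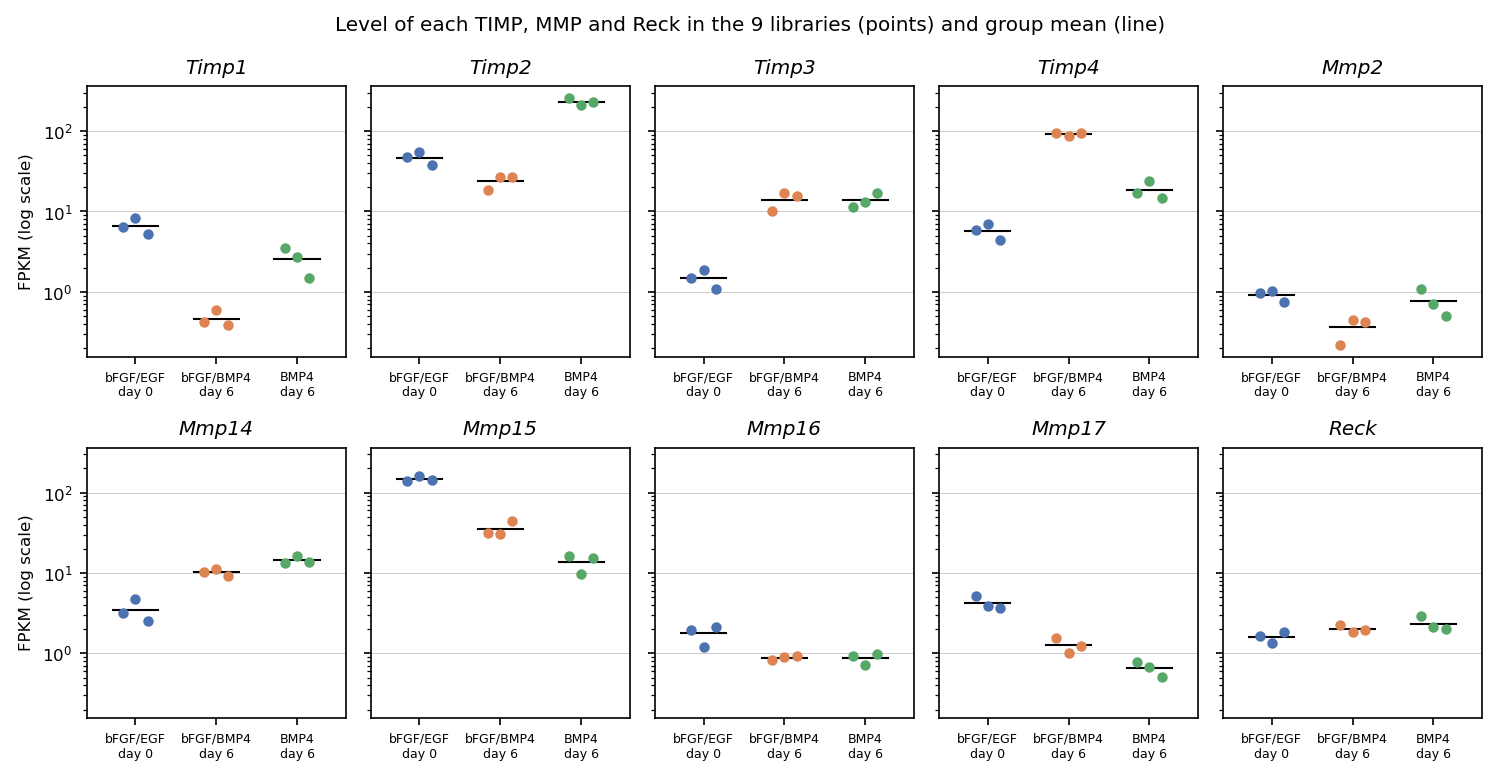
FPKM on a log scale (y axis, the same in all panels) of each TIMP, MMP and Reck in the 3 libraries of bFGF/EGF-treated NSCs at day 0 and of bFGF/BMP4- and BMP4-treated NSCs at day 6, with points for libraries and a line for the group mean. Timp2 reached 211 to 256 FPKM with BMP4, Timp4 reached 88.1 to 95.8 FPKM with bFGF/BMP4, and Mmp15 stood at 139 to 162 FPKM at day 0 and at 9.83 to 16.1 FPKM with BMP4.

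Reck (ENSMUSG00000028476, chr4:43875514-43944806, plus strand) encodes a membrane-anchored MMP inhibitor that also serves as a co-receptor in Wnt signaling. Its level was 1.66, 1.34 and 1.85 FPKM in the bFGF/EGF libraries, 2.23, 1.85 and 1.95 FPKM in the bFGF/BMP4 libraries and 2.91, 2.13 and 1.99 FPKM in the BMP4 libraries. The day 0 libraries lay below the others, by less than 0.01 FPKM between the nearest ones, and the 2 day 6 groups overlapped. The log2 fold changes were 0.31 with bFGF/BMP4 and 0.50 with BMP4 against day 0 and 0.20 between the day 6 groups, each with an SE of 0.20 and each short of a fold of 2.

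Mmp15 (ENSMUSG00000031790, chr8:96078895-96101708, plus strand), a transmembrane MMP, was the most abundant of the 10 genes in bFGF/EGF-treated NSCs. Its level was 139, 162 and 145 FPKM in the bFGF/EGF libraries, 31.6, 30.3 and 43.8 FPKM in the bFGF/BMP4 libraries and 16.1, 9.83 and 15.2 FPKM in the BMP4 libraries. The order from day 0 to bFGF/BMP4 to BMP4 held for every library. The mean was 149 ± 11.6 FPKM at day 0, 4.23-fold lower with bFGF/BMP4 and 10.9-fold lower with BMP4, and the BMP4 mean was 2.57-fold below that of bFGF/BMP4. On the log2 scale these differences were -2.10 ± 0.20, -3.46 ± 0.20 and -1.37 ± 0.20 (SE).

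Mmp14 (ENSMUSG00000000957, chr14:54668878-54682821, plus strand), a transmembrane MMP that can activate the Mmp2 precursor, differed in the opposite direction from Mmp15. Its level was 3.18, 4.71 and 2.54 FPKM in the bFGF/EGF libraries, 10.4, 11.3 and 9.28 FPKM in the bFGF/BMP4 libraries and 13.4, 16.5 and 13.8 FPKM in the BMP4 libraries. No groups overlapped. The mean with bFGF/BMP4 was 2.97-fold and that with BMP4 4.19-fold the day 0 mean of 3.48 ± 1.11 FPKM, and BMP4 exceeded bFGF/BMP4 by 1.41-fold, short of a fold of 2. Mmp14 and Mmp15, which lay far apart at day 0, overlapped in BMP4-treated NSCs, at 14.6 ± 1.68 and 13.7 ± 3.37 FPKM.

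Mmp17 (ENSMUSG00000029436, chr5:129661084-129688163, plus strand), the lipid-anchored MMP, followed the direction of Mmp15 at a lower level. Its level was 5.15, 3.86 and 3.69 FPKM in the bFGF/EGF libraries, 1.55, 1.00 and 1.24 FPKM in the bFGF/BMP4 libraries and 0.782, 0.681 and 0.513 FPKM in the BMP4 libraries. The groups did not overlap, and the mean of 4.23 ± 0.795 FPKM at day 0 stood against 1.27 ± 0.274 FPKM with bFGF/BMP4, 3.34-fold lower, and 0.658 ± 0.136 FPKM with BMP4, 6.43-fold lower. Between the day 6 groups the log2 fold change was -0.85 ± 0.23 (SE), short of a fold of 2.

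Mmp16 (ENSMUSG00000028226, chr4:17852844-18125390, plus strand), the last of the transmembrane MMPs in the set, had its highest values at day 0. Its level was 1.97, 1.20 and 2.13 FPKM in the bFGF/EGF libraries, 0.826, 0.895 and 0.933 FPKM in the bFGF/BMP4 libraries and 0.938, 0.727 and 0.972 FPKM in the BMP4 libraries. Both day 6 groups lay below day 0 and overlapped each other. The log2 fold changes from day 0 were -0.89 ± 0.25 with bFGF/BMP4 and -0.90 ± 0.25 with BMP4 (SE), short of a fold of 2. Both passed it without replicate 2 of bFGF/EGF, at -1.13 and -1.15, and that with BMP4 also on the TPM scale, at -1.04.

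Mmp2 (ENSMUSG00000031740, chr8:93553902-93580049, plus strand), the secreted gelatinase, was low in every library. Its level was 0.977, 1.03 and 0.755 FPKM in the bFGF/EGF libraries, 0.222, 0.445 and 0.424 FPKM in the bFGF/BMP4 libraries and 1.10, 0.714 and 0.504 FPKM in the BMP4 libraries. The bFGF/BMP4 libraries lay below both other groups, which overlapped. These values rest on 12 to 60 fragments per library, and the log2 fold change of bFGF/BMP4- from bFGF/EGF-treated NSCs, -1.17 ± 0.33 (SE), came to -0.93 without replicate 1 of bFGF/BMP4 and to -0.50 with a pseudocount of 1, both short of a fold of 2. The overlapping Gm45472, on the opposite strand with 860 bp of shared exon sequence, did not exceed 0.0477 FPKM.

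Summed over the 4 TIMPs and the 5 MMPs of the set, protease transcripts exceeded inhibitor transcripts at day 0 and were below them at day 6, an order that rests on Mmp15. The TIMPs summed to 61.9, 71.8 and 48.8 FPKM in the bFGF/EGF libraries, 123, 133 and 139 FPKM in the bFGF/BMP4 libraries and 288, 250 and 261 FPKM in the BMP4 libraries. The MMPs summed to 151, 173 and 155 FPKM in the bFGF/EGF libraries, 44.6, 43.9 and 55.6 FPKM in the bFGF/BMP4 libraries and 32.3, 28.5 and 31.0 FPKM in the BMP4 libraries. Neither sum overlapped between any groups. The ratio of the TIMP to the MMP sum was 0.381 ± 0.0564 at day 0, 2.76 ± 0.265 with bFGF/BMP4 and 8.71 ± 0.262 with BMP4 (SD, n = 3). The ratio leaves out MMPs outside the set, such as Mmp19 (means of 0.587, 12.5 and 8.34 FPKM at day 0, with bFGF/BMP4 and with BMP4). The ratio is one of transcripts and not of proteins or of activity. It rests on few genes: without Timp2, the TIMP with the highest mean, it was 0.0870, 2.25 and 1.15, so that bFGF/BMP4 and not BMP4 had the highest ratio. Without Mmp15, the MMP with the highest mean, an alternative added after the values were seen, it was 5.83, 10.3 and 15.9, so that the TIMP sum exceeded the MMP sum at day 0 as well.

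**Figure D2:**
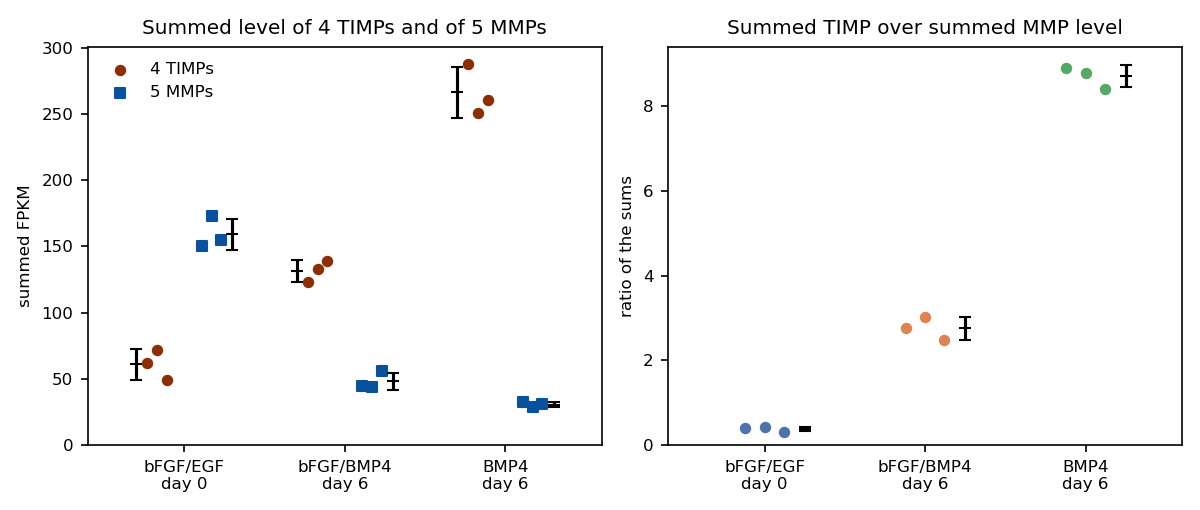
Left, summed FPKM (y axis) of the 4 TIMPs (circles) and of the 5 MMPs (squares) in each library of the 3 groups, and right, the ratio of the TIMP to the MMP sum in each library, with bars for the mean and SD of 3 libraries. TIMP sums lay at 48.8 to 71.8 FPKM at day 0 and at 250 to 288 FPKM with BMP4, MMP sums lay at 151 to 173 FPKM and at 28.5 to 32.3 FPKM, and the ratio lay below 1 only at day 0.

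The make-up of the MMP sum differed as well. Mmp15 made up 93.5% ± 0.834 of it at day 0, 72.8% ± 5.16 with bFGF/BMP4 and 44.4% ± 8.57 with BMP4. Mmp14 made up 2.16% ± 0.543, 21.9% ± 4.70 and 48.1% ± 8.76 (SD, n = 3), and its shares overlapped those of Mmp15 in the BMP4 libraries. Mmp2, Mmp16 and Mmp17 each had between 0.489% and 3.48% of the sum in every library.

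**Figure D3:**
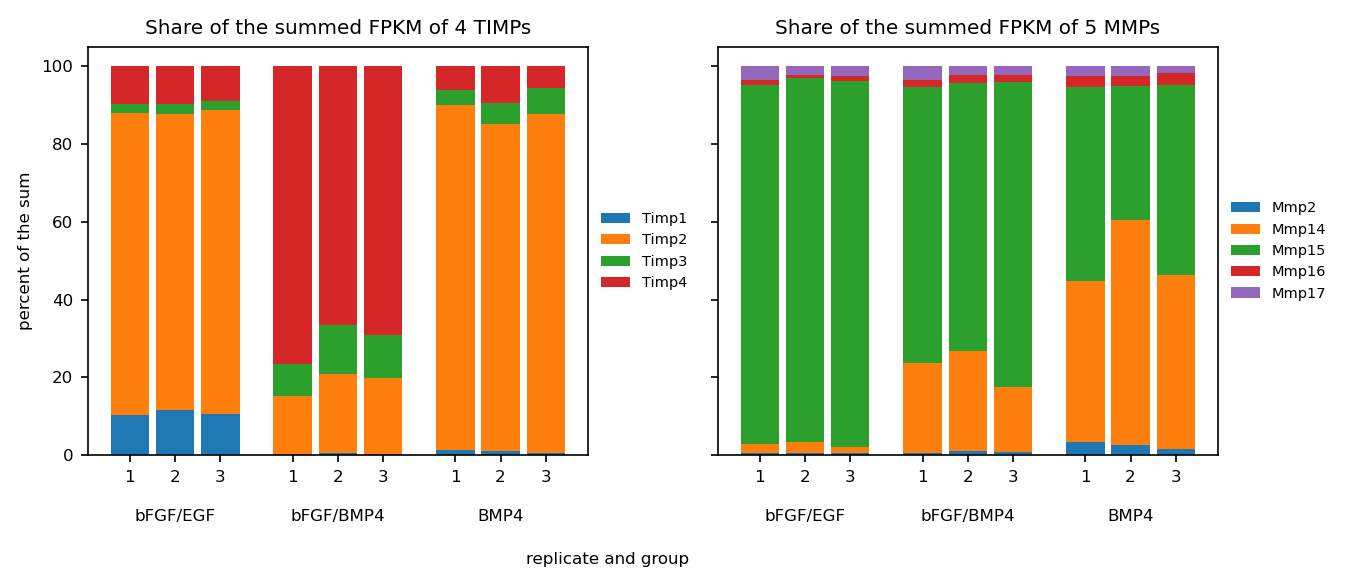
Share, in percent of the sum (y axis), of each TIMP in the summed FPKM of the 4 TIMPs (left) and of each MMP in the summed FPKM of the 5 MMPs (right), with 1 bar per library. Timp4 has 66.4% to 76.6% of the TIMP bar in the bFGF/BMP4 libraries, where Timp2 has 76.0% to 88.9% in all other libraries, and Mmp14 widens from 1.65% to 2.73% of the MMP bar at day 0 to 41.5% to 58.0% with BMP4.

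By mean level, Mmp15 and Timp2 led at day 0, each apart from the next gene, and the 3 neighbouring steps from Timp1 over Timp4 and Mmp17 to Mmp14 overlapped between libraries. In bFGF/BMP4-treated NSCs the order was Timp4, Mmp15, Timp2 and Timp3, of which only Timp3 overlapped with the next gene, Mmp14. In BMP4-treated NSCs Timp2 stood alone, and Timp4, Mmp14, Timp3 and Mmp15 followed with overlap at each step. Mmp16, Reck and Timp3 overlapped at day 0 too, below Mmp14. Mmp2 was last in both groups with bFGF, overlapping with Timp1 in bFGF/BMP4-treated NSCs, and in BMP4-treated NSCs Mmp17 was last and overlapped with Mmp2.

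In the comparison of bFGF/BMP4- with bFGF/EGF-treated NSCs, 7 of the 10 genes were past the limits applied to all genes, an adjusted p-value of at most 0.05 in limma and a fold change of at least 2, where 30.6% of all genes tested were. Timp3, Timp4 and Mmp14 were the 3 higher genes (16.5% of all genes were higher) and Timp1, Mmp2, Mmp15 and Mmp17 the 4 lower ones (14.1%). For BMP4- against bFGF/EGF-treated NSCs there were 7 genes past the limits (36.6% of all genes), with Timp2, Timp3, Timp4 and Mmp14 higher (21.3%) and Timp1, Mmp15 and Mmp17 lower (15.4%). For BMP4- against bFGF/BMP4-treated NSCs there were 4 (13.5%), with Timp1 and Timp2 higher (8.41%) and Timp4 and Mmp15 lower (5.14%). The groups did not overlap for 10, 9 and 7 of the 10 genes in the 3 comparisons, against 57.7%, 60.4% and 38.7% of all genes. Nothing is read from these counts, since the same comparisons had chosen the genes. The median log2 fold change of the 10 genes was -0.92, 0.11 and 0.10 in the 3 comparisons, beside 0.06, 0.10 and 0.00 over all 20207 genes.

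**Figure D4:**
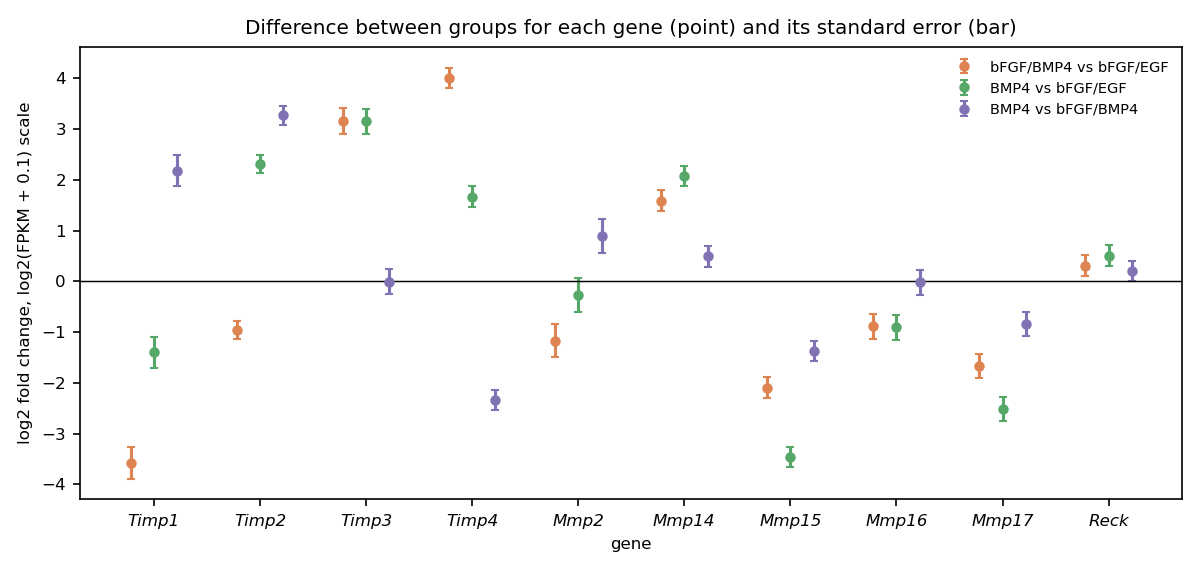
Log2 fold change on the log2(FPKM + 0.1) scale (y axis) of each of the 10 genes (x axis) in the 3 comparisons, shown by color, with points for the limma estimate and bars for its standard error. Timp3 has nearly the same value in both comparisons with day 0 (3.16 and 3.15), Timp2 is at -0.96 and 2.31, and Timp4 at 4.01 and 1.67.

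For each of the 9 genes with a mean of at least 1 FPKM, the protein-coding gene with the most similar profile was sought among 7458 genes with a mean of at least 5 FPKM, by Pearson's r of log2(FPKM + 0.1) over the 9 libraries. These libraries fall into 3 groups, so high values of r are common, and they are given as a description. Timp2 was nearest to Igfbp7 (r = 0.996), with means of 3.18, 1.23 and 18.7 FPKM at day 0, with bFGF/BMP4 and with BMP4. Timp4 was nearest to Prpsap1 (r = 0.993), with 16.5, 163 and 45.2 FPKM, and Timp3 to Epha4 (r = 0.994), with 1.29, 9.76 and 11.2 FPKM. Mmp15 was nearest to Bmp7 (r = 0.995), whose means were 24.4, 4.21 and 1.05 FPKM. The others were nearest to Gprin1 (Timp1, 0.988), Spryd3 (Mmp14, 0.995), Ttc3 (Mmp16, 0.997), Cacng4 (Mmp17, 0.992) and Atp11b (Reck, 0.923, the least similar).

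The remaining genes of pericellular proteolysis, 89 in 6 lists, were tested beside the TIMPs and MMPs, and 61 of them passed the filter. With bFGF/BMP4 13 rose and 18 fell from day 0, with BMP4 17 rose and 14 fell, and 18 were higher and 8 lower with BMP4 than with bFGF/BMP4. In all, 31, 31 and 26 were past the limits, and the median log2 fold changes of the 61 were 0.12, 0.46 and 0.22, beside 0.06, 0.10 and 0.00 over all genes. Of all 20207 genes, 16.5% rose and 14.1% fell with bFGF/BMP4, 21.3% rose and 15.4% fell with BMP4, and 8.41% were higher and 5.14% lower with BMP4 than with bFGF/BMP4, and these shares are the background of the counts for each list. Of the 18 other MMPs, 12 did not pass the filter and 9 of these were at 0 in every library, Mmp3, Mmp12 and Mmp8 among them. Among the 6 tested, 2 rose and 0 fell with bFGF/BMP4, and 3 rose and 0 fell with BMP4. Between the day 6 groups 2 of the 6 were higher and 0 lower with BMP4. The fall of the MMP sum of the set was thus not shared by these MMPs. Mmp19, a secreted MMP, rose from 0.587 ± 0.267 FPKM at day 0 to 12.5 ± 0.881 FPKM with bFGF/BMP4 (adjusted p = 8.8e-07, limma) and 8.34 ± 1.24 FPKM with BMP4 (adjusted p = 1.6e-06). It shares 1084 bp of exon with Tmem198b and 218 bp with Gm47093, both on the opposite strand, and the part of this sequence in its level was not tested. Mmp24, a transmembrane MMP, was at 1.77 ± 0.413 FPKM at day 0, 0.990 ± 0.279 FPKM with bFGF/BMP4 and 3.08 ± 0.764 FPKM with BMP4 (adjusted p = 0.0026 between the day 6 groups, limma). Its log2 fold changes from day 0, -0.79 and 0.77, were short of a fold of 2, and it shares 698 bp of exon with Mmp24os1 on the opposite strand.

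Other inhibitors and activators of the same system also differed between the groups. Of 12 tested genes of MMP activation, inhibition and uptake, 5 rose and 1 fell with bFGF/BMP4, 2 rose and 1 fell with BMP4, and 2 were higher and 3 lower with BMP4 than with bFGF/BMP4, where all genes had 16.5% and 14.1%, 21.3% and 15.4%, and 8.41% and 5.14%. A2m, a broad protease inhibitor that traps its targets, was at 2.42 ± 0.128, 8.91 ± 0.862 and 60.3 ± 13.1 FPKM in the 3 groups, highest in BMP4-treated NSCs as Timp2 was (adjusted p = 4.4e-06 between the day 6 groups, limma). Pcsk6, a proprotein convertase, was at 3.45 ± 0.947, 60.4 ± 8.75 and 5.76 ± 0.527 FPKM (adjusted p = 5.8e-06 between the day 6 groups), and Spock1, a matrix proteoglycan of the testican family, at 0.0795 ± 0.0366, 10.0 ± 2.44 and 0.397 ± 0.174 FPKM (adjusted p = 1.4e-05), both highest with bFGF/BMP4 as Timp4 was.

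In the plasminogen system, 4 of the 7 tested genes were higher with BMP4 than with bFGF/BMP4 and 0 were lower, while 1 rose and 2 fell from day 0 with bFGF/BMP4, and 3 rose and 1 fell with BMP4. Between the day 6 groups 8.41% of all genes were higher and 5.14% lower with BMP4. Serpine2, the most abundant of the 7, went the other way but short of a fold of 2. It had 433 ± 80.7 FPKM with bFGF/BMP4 and 284 ± 50.6 FPKM with BMP4 (adjusted p = 0.046, limma). Plat, the tissue plasminogen activator, had 37.8 ± 6.61, 13.4 ± 2.59 and 50.1 ± 0.495 FPKM in the 3 groups (adjusted p = 3.5e-05 between the day 6 groups, limma). Plau, the urokinase, had 1.08 ± 0.171, 1.20 ± 0.451 and 4.91 ± 2.00 FPKM (adjusted p = 0.0027), and Serpini1, the inhibitor neuroserpin, 0.797 ± 0.162, 0.523 ± 0.141 and 1.82 ± 0.457 FPKM (adjusted p = 0.0022).

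Of 23 tested ADAMTS and ADAMTSL genes, whose proteases cut proteoglycans and procollagens, 3 rose and 13 fell with bFGF/BMP4, 6 rose and 9 fell with BMP4, and 8 were higher and 4 lower with BMP4 than with bFGF/BMP4. The shares of all genes were 16.5% and 14.1%, 21.3% and 15.4%, and 8.41% and 5.14% for the same comparisons and directions. Papln fell from 7.2 ± 1.97 FPKM at day 0 to 0.391 ± 0.0550 and 0.127 ± 0.0263 FPKM (adjusted p = 2.2e-06 and 3.3e-07, limma), and Adamts14, a procollagen protease, from 11.8 ± 3.02 to 2.87 ± 1.22 and 0.585 ± 0.196 FPKM (adjusted p = 0.00091 and 7.2e-06). Papln shares 2268 bp of exon with Numb on the opposite strand, and the part of this sequence in its level was not tested. Adamtsl5 rose from 0.0877 ± 0.0536 FPKM to 3.01 ± 0.990 and 2.68 ± 0.180 FPKM (adjusted p = 2.8e-06 and 2.3e-06). Of 10 tested ADAMs, membrane proteases of which many shed cell surface proteins, 2 rose and 1 fell with bFGF/BMP4, 2 rose and 2 fell with BMP4, and 1 was higher and 1 lower with BMP4 than with bFGF/BMP4. Adam12 was at 44.2 ± 2.58, 52.3 ± 12.7 and 2.51 ± 0.449 FPKM in the 3 groups (adjusted p = 1.2e-06 between the day 6 groups), Adam19 at 10.2 ± 1.88, 0.356 ± 0.0209 and 0.738 ± 0.0970 FPKM, and Adam11, which lacks protease activity, at 1.87 ± 0.412, 5.10 ± 2.44 and 20.5 ± 7.36 FPKM. Of 3 tested astacins and enhancers, 1 fell with bFGF/BMP4, 1 rose and 1 fell with BMP4, and Pcolce, the procollagen protease enhancer, was the 1 gene higher with BMP4 than with bFGF/BMP4, at 8.42 ± 1.73 against 3.24 ± 0.767 FPKM (adjusted p = 0.0013).

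**Figure D5:**
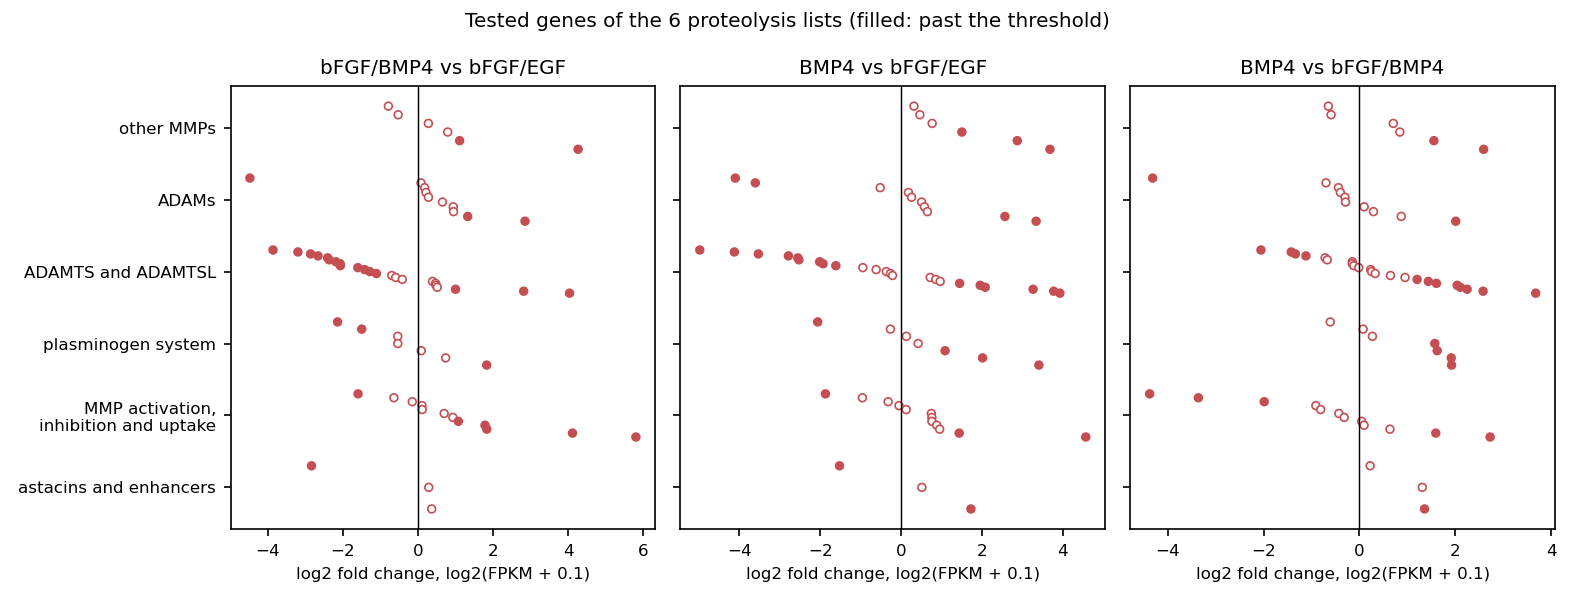
Log2 fold change on the log2(FPKM + 0.1) scale (x axis) of the 61 tested genes of the 6 proteolysis lists (y axis) in the 3 comparisons, with 1 point per gene, filled where limma's adjusted p-value was at most 0.05 and the fold change at least 2. In the ADAMTS and ADAMTSL row 13 filled points lie below 0 and 3 above it for bFGF/BMP4 against bFGF/EGF. In the plasminogen row 4 filled points lie above 0 and 0 filled points below it for BMP4 against bFGF/BMP4.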

How the data were processed

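The data were 9 bulk RNA-seq libraries of mouse NSCs, 3 per group. Per the submitters' processing notes, reads were cleaned with fastp 0.19.7, aligned with HISAT2 2.0.5 to mm39 and counted with featureCounts 1.5.0-p3. The authors deposited FPKM values; the annotation release, the strand setting and the program that computed FPKM are not given in the sources used here. FPKM steps gave whole fragments (within 0.1) for all 30860 genes above 0, and the scaling constant of a library was 0.921 to 1.07 times its fragments on genes, so the FPKM values were not scaled by that total alone. The authors used DESeq2 on counts. The counts in the supplement of the paper were not used here, since only the deposited FPKM table was analysed. Here limma 3.58.1 in R 4.3.3 was fitted with a trend to log2(FPKM + 0.1) of the 20207 genes with a mean of at least 0.1 FPKM, with all 9 libraries, Benjamini-Hochberg adjustment over all genes tested, and limits of an adjusted p-value of 0.05 and a fold change of 2. Fold changes on this scale understate those of low genes. P-values measure only the spread between these libraries. Scripts were tested on simulated data.

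Fold differences of levels are ratios of group means. GRCm39 positions and overlapping genes came from GENCODE vM39, which held 54749 of 55414 Ensembl identifiers. Positions, promoters and plots used Python 3.11.15 (matplotlib 3.10.9, numpy 2.4.6, pandas 2.3.3). The 10 genes, the proteolysis and marker lists and the tests were chosen with earlier results of these data known. Named were all 10 genes, their nearest genes, the synapsins that overlap TIMP genes and genes of each proteolysis list. Per list these were up to 3 genes past the limits with the largest change among those with a mean of at least 1 FPKM. Sox2 and the marker genes come from the marker lists. Mmp3, Mmp8, Mmp12, Serpine2, Foxj1, Gap43, Dcx, Tmem119, P2ry12, Cd68 and the markers at 0 were named after their values were seen. A further marker list is not reported here. Alternatives were a pseudocount of 1, a mean of at least 1 FPKM or no filter, the TPM scale, median-ratio scaling, limma-voom on rebuilt fragments, a replicate block, only the groups compared, no fold limit and each library left out singly. The TIMP to MMP ratio was also taken without Timp2 and, as an alternative added after the data were seen, without Mmp15. Columns of values of other samples were not found.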

Additional observations from a re-analysis of the deposited data

How the results depend on the processing

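The 30 log2 fold changes of the TIMPs, MMPs and Reck were computed under up to 18 alternatives each. Of 537 values 526 moved by less than the spread and 11 moved by more, all 11 with a pseudocount of 1, which shrinks the changes of low genes. Many of the 526 could not move. The filters, the replicate block, the groups compared alone and the fold limit leave these estimates as they are. So does leaving out a library of a group that is not compared. The number 526 is thus no measure of how stable the values are. Mmp2 has no value with a mean of at least 1 FPKM. The counts for the 89 proteolysis genes moved by over 1.5 times as follows. With a pseudocount of 1, 8 were higher and 10 lower with bFGF/BMP4 than at day 0, 8 were lower with BMP4 than at day 0, and 11 were higher and 5 lower with BMP4 than with bFGF/BMP4. With a mean of at least 1 FPKM, under which fewer genes were tested, 10 were lower with bFGF/BMP4, 10 higher and 8 lower with BMP4, and 11 higher with BMP4 than with bFGF/BMP4. With no fold limit, 20 were higher with bFGF/BMP4, 29 higher with BMP4, and 13 lower with BMP4 than with bFGF/BMP4. Without Timp2 the TIMP to MMP ratio was 0.0870, 2.25 and 1.15 at day 0, with bFGF/BMP4 and with BMP4, and without Mmp15, chosen after seeing the data, it was 5.83, 10.3 and 15.9. On the limma-voom scale the median log2 fold change of all genes was 0.11 in both comparisons with day 0.

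Deviations of same-numbered libraries from their group means had r of -0.08 to 0.13, over 0.1 in 1 of 9 pairs, beside -0.15 to 0.08 for other numbers. These values show no clear pairing by replicate number. They cannot decide whether same-numbered libraries shared an isolation, which the labels do not say. With the replicate block, 13 proteolysis genes were higher and 18 lower with bFGF/BMP4, 17 higher and 14 lower with BMP4, and 17 higher and 8 lower with BMP4 than with bFGF/BMP4, and 6127, 7383 and 2612 of all genes were past the limits in place of 6174, 7400 and 2738. Low fragment numbers limit Timp1 with bFGF/BMP4 and Mmp2 throughout.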
